A study of Mus musculus with 12 samples.

Results

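The genes described here are 10 p53 targets and senescence genes, followed in lymphatic endothelial cells (LECs) of the mouse lung. They are Trp53 itself, its inhibitor Mdm2, the cyclin-dependent kinase inhibitors Cdkn1a, Cdkn2a and Cdkn2b, and the p53 targets Ccng1, Sesn1, Bax, Gdf15 and Phlda3. They were found by symbol through the GENCODE M21 annotation of GRCm38. All 10 had a row among the 52636 Ensembl identifiers in the count files, and all 10 were among the 21440 genes tested. Cdkn2a passed the filter on low counts although only 4 libraries had 9 or more counts, and it was at 0 in 6 of the 12.

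The LECs were sorted as CD31+ GFP+ cells from Prox1-EGFP mice, in which regulatory sequence of the lymphatic gene Prox1 drives GFP, after cells with leukocyte lineage markers or EPCAM were gated out. The mice breathed cigarette smoke (CS) or room air (RA) from an age of 6 weeks. Acute exposure lasted 8 weeks (acute RA F and M, acute CS F and M, where F and M give the sex) and chronic exposure at least 24 weeks (chronic RA F, M1 and M2, chronic CS F, M1, M2, M3 and M4). Each acute library pooled 2 to 5 mice, whereas chronic libraries did not pool mice, so pooling, age and exposure time cannot be told apart when acute and chronic libraries are compared. The exposure times and the age at the start are those of the study's methods, while the sample labels give 8 weeks as the age of the acute mice and call the chronic mice Aged. GFP was carried by all groups alike.

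p53 is a transcription factor that is stabilized by DNA damage and oxidative stress, and its activity is read in tissue from the mRNA of its targets. Mdm2 marks p53 for degradation and is itself induced by p53, which closes a feedback loop. Cdkn1a (p21) stops the cell cycle, and Cdkn2a (p16 and p19Arf) and Cdkn2b (p15) are the genes most used as signs of lasting arrest, or senescence. Smoke is an oxidant exposure, and the comparisons ask whether these genes differed in LECs after a short or a long exposure, and between the room air animals of both time points.

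The start of a p53 target gene can carry a p53 response element, made of a pair of half-sites of 10 letters each. RefSeq windows (GRCm38.p6) of 250 bases upstream of the start site were found for all 10 genes, 14 windows in all. The windows of 3 genes are shown. One of the Cdkn1a windows and the Ccng1 window were the only ones of the 14 with a pair of adjacent half-sites differing from the consensus in at most 1 of 20 letters, which is marked in capitals, and the Phlda3 window belongs to the gene with the smallest adjusted p after acute CS, with GC boxes (GGGCGG or its complement) in capitals.
Cdkn1a, chr17:29090729-29090978, plus strand: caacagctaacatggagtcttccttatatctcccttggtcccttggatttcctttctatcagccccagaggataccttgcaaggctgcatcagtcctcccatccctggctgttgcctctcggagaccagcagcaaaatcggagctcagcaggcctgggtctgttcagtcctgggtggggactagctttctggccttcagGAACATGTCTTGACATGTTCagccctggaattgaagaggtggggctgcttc
Ccng1, chr11:40755287-40755536, minus strand: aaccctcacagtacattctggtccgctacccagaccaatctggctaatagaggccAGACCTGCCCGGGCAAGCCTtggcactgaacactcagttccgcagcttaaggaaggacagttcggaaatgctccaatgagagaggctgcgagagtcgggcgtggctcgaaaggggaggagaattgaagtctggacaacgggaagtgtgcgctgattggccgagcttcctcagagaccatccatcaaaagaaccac
Phlda3, chr1:135765835-135766084, plus strand: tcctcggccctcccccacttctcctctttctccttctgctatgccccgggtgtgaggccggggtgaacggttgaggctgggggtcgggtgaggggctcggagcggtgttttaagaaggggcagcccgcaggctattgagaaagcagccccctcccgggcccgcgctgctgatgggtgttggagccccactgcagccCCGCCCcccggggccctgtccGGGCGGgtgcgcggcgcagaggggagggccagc
The element began 51 bases upstream of the Cdkn1a start site at 29090979 and 195 bases upstream of that of Ccng1. In the window of the other Cdkn1a start site, at 29093769, neither the element nor a half-site was found. Of 32851 windows of all genes, searched on both strands, 25 (0.0761%) held such a pair. This definition was chosen after the matches of a first one were seen: exact half-sites with a spacer of 0 to 13 bases were found in 1 of the 14 windows, that of Cdkn1a, and in 21 (0.0639%) of all. A single exact half-site, which overlaps with either form, was in 6 of the 14 windows (Bax, Ccng1, Cdkn1a, Mdm2, Sesn1 and Trp53) and in 7.13% of all. In the windows of Phlda3, Gdf15, Cdkn2a and Cdkn2b these letters were not found.

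Of 5 other motifs searched on both strands, the cAMP response element TGACGTCA was in 1 of the 14 windows, that of Cdkn2b, and in 1.55% of all. GC boxes (GGGCGG) were in 7 of 14 and in 32.7% of all, TATAAA in 1 of 14 and in 12.4%, the antioxidant response element TGACNNNGC in 2 of 14 and in 10.2%, and the AP-1 site TGANTCA in 0 of 14 and in 6.75%. TGACGTCA and TGACNNNGC share their first letters and can overlap. A match is a description of these letters only.

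Expression is given in CPM, counts divided by the library's size, corrected with TMM factors, and put on a common scale. Levels of different genes are set side by side only in FPKM, which divides by exon length. Over the 5 room air libraries Sesn1 (52.7 ± 6.90 FPKM, SD) and Bax (46.0 ± 3.53 FPKM) were the highest of the 10, and their ranges overlapped. Trp53 followed at 29.3 ± 1.93 FPKM, apart from the genes above and below it. Cdkn1a (20.4 ± 3.61 FPKM), Phlda3 (19.7 ± 2.04 FPKM), Ccng1 (19.5 ± 1.47 FPKM) and Mdm2 (16.5 ± 0.927 FPKM) each overlapped with their neighbor in this order. Gdf15 (4.81 ± 1.55 FPKM) and Cdkn2b (2.07 ± 0.686 FPKM) lay lower and apart from each other, and Cdkn2a was close to 0 (0.0532 ± 0.105 FPKM).

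**Figure D1:**
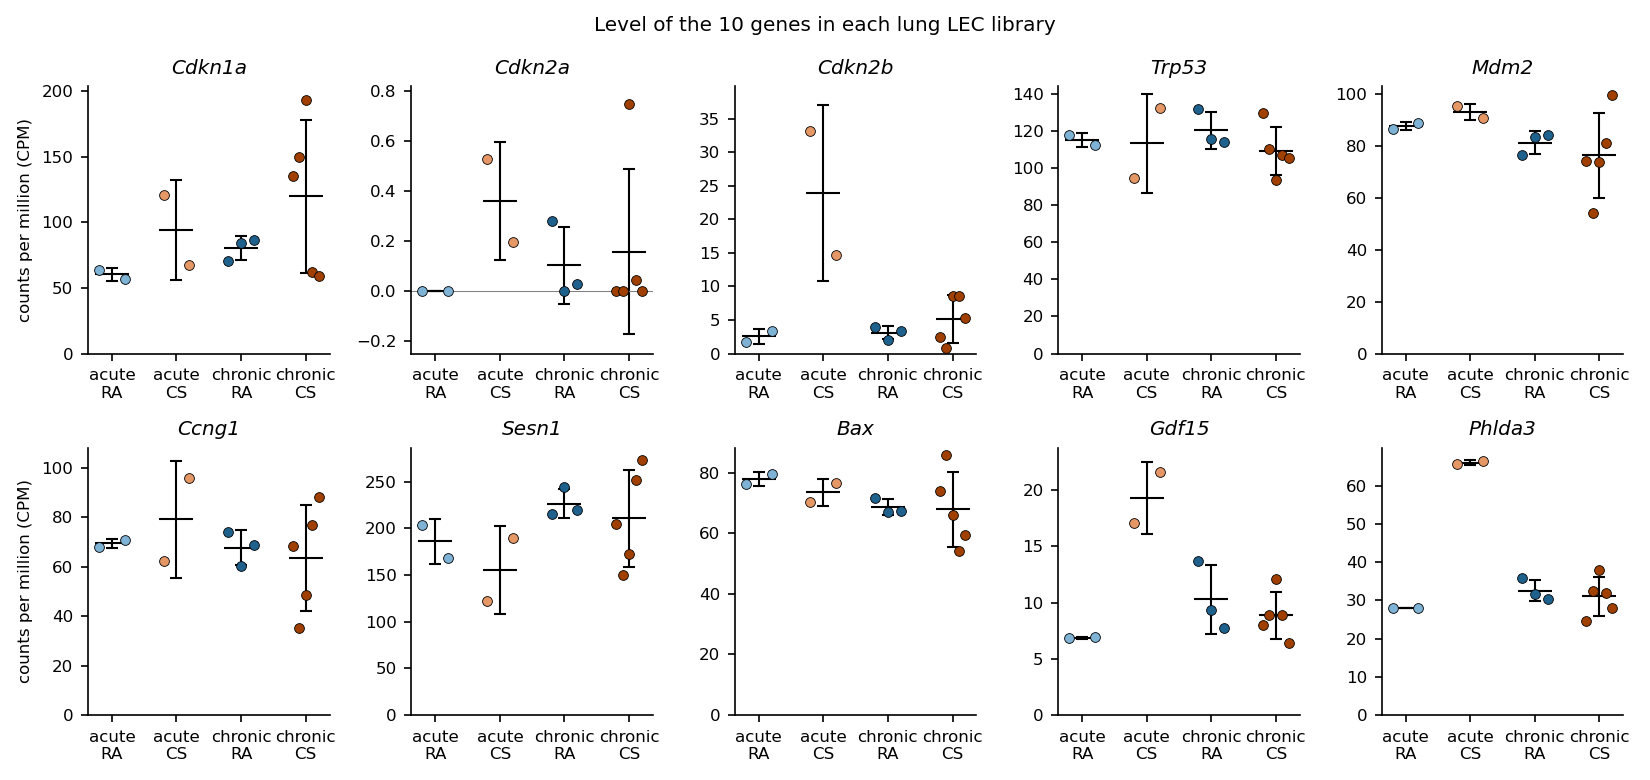
Level of the 10 genes in CPM (vertical axis, from 0 except for Cdkn2a, whose axis runs below 0 to show the error bar) in each of 12 libraries, by group. Points are libraries, horizontal bars are group means and error bars are SD (n = 2, 2, 3 and 5). Phlda3 and Gdf15 lie above all other groups in both acute CS libraries, and Cdkn1a in chronic CS falls into 3 high and 2 low libraries.

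Facts of the libraries bear on these values. Total counts ranged from 18821438 to 56998590 a library, and chronic CS F, M1 and M2 were the shallowest. In acute CS, markers of other cells were counted with the LEC markers: the sum over 8 leukocyte markers was 208 to 221 CPM in acute RA and 1705 to 2190 CPM in acute CS, and the sum over 7 lymphatic markers was 15254 to 17066 CPM and 6485 to 9821 CPM. Prox1 was at 1042 CPM or above in every library. In these bulk samples, fewer cells of a type and less RNA per cell cannot be told apart.

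After acute CS, 2 of the 10 genes rose, Phlda3 and Gdf15, and none fell. Among all genes tested, 2.75% were called higher and 0.723% lower by edgeR's quasi-likelihood test at an adjusted p of 0.05. Phlda3, whose product competes with the kinase AKT for membrane lipids, was at 28.1 CPM in acute RA F and 28.0 CPM in acute RA M, against 65.6 CPM in acute CS F and 66.4 CPM in acute CS M. The values of each pair nearly coincided, and the pairs lay far apart. The log2 fold change was 1.24 (SE 0.20, edgeR adjusted p = 0.00909), and the means were 28.0 ± 0.0449 CPM in acute RA and 66.0 ± 0.583 CPM in acute CS (SD, n = 2 each).

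Gdf15, a secreted cytokine of the TGF-beta superfamily that is induced by many stresses, was at 6.81 CPM in acute RA F and 6.94 CPM in acute RA M, and at 17.0 CPM in acute CS F and 21.6 CPM in acute CS M. Both smoke libraries were again above both room air libraries. The log2 fold change was 1.49 (SE 0.36), and the edgeR adjusted p of 0.0495 was only just under the limit. The call was kept in 3 of 20 alternative analyses, with adjusted p between 0.000942 and 0.299, while the log2 fold change stayed between 1.31 and 1.65. Phlda3 was called in 15 of 20 and stayed between 1.19 and 1.25. Its call was lost in 5, among them when acute libraries alone were fitted (edgeR adjusted p = 0.0622), without acute RA F (edgeR adjusted p = 0.0947), without acute RA M (0.112) and without acute CS F (0.0544).

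The 3 kinase inhibitors were higher in both acute CS libraries than in both acute RA libraries without passing the test. Cdkn2b was at 1.76 CPM in acute RA F and 3.33 CPM in acute RA M, and at 33.1 CPM in acute CS F and 14.6 CPM in acute CS M. This was the largest difference of the 10 apart from Cdkn2a, with a wide spread between the smoke libraries (log2 fold change 3.23, SE 0.94, edgeR adjusted p = 0.0997). It was called by DESeq2 (adjusted p = 0.00330), which called 3 of the 9 genes it gave an adjusted p and 10.9% of all genes, and by edgeR without chronic CS M1 (0.0343). Cdkn1a was at 63.7 and 57.0 CPM in acute RA F and M, and at 121 and 67.4 CPM in acute CS F and M, so that most of its difference came from acute CS F (log2 fold change 0.64, SE 0.50, edgeR adjusted p = 0.639).

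Cdkn2a had 0 counts in both acute RA libraries, 27 counts in acute CS F and 9 counts in acute CS M. Against a floor of 3 counts per library, the mean of 0.363 CPM in acute CS was at least 6.75-fold higher (edgeR adjusted p = 0.348). Its transcripts for p16 and p19Arf share exons, and counts per gene do not separate them.

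Trp53 and the other 4 targets did not pass the test. Trp53 was at 118 and 113 CPM in acute RA F and M and at 94.7 and 132 CPM in acute CS F and M, a log2 fold change of -0.02 (SE 0.18). Mdm2 was at 87.6 ± 1.69 CPM in acute RA and 93.0 ± 3.07 CPM in acute CS (SD, n = 2 each; log2 fold change 0.09, SE 0.22). Ccng1, which encodes cyclin G1, differed by 0.19 (SE 0.36), Sesn1, which restrains mTORC1 signaling, by -0.26 (SE 0.28), and Bax, which permeabilizes mitochondria in apoptosis, by -0.09 (SE 0.19), all as log2 fold changes. edgeR adjusted p for these 5 genes lay between 0.780 and 0.985. Trp53, Ccng1, Sesn1 and Bax overlapped between the groups, whereas 6 of the 10 genes were apart on the higher side, as were 27.4% of all genes tested. With 2 libraries a group, the exact two-sided permutation test cannot go below p = 0.333.

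**Figure D2:**
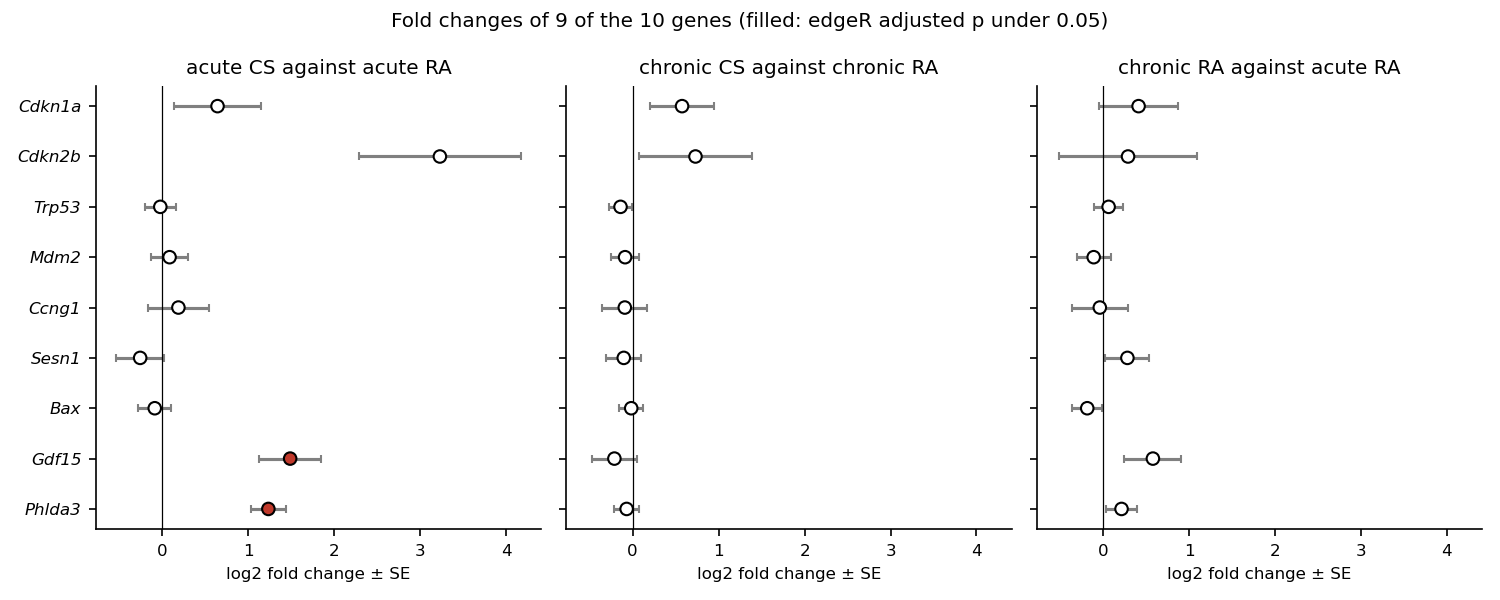
log2 fold change (horizontal axis, bars are SE) of 9 of the genes in the acute CS, chronic CS and room air comparisons. Filled points passed edgeR's adjusted p of 0.05, which only Phlda3 and Gdf15 did, both after acute CS, and Cdkn2a is left out because it was at 0 in all acute RA libraries.

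The rise of Phlda3 and Gdf15 went along with markers of other cell types. In acute CS, 7 of 8 leukocyte, 6 of 10 mesenchymal, 4 of 10 lymphoid, 3 of 10 alveolar macrophage, 5 of 11 blood endothelial and 1 of 10 alveolar epithelial markers were called higher, 1 alveolar macrophage marker lower, and 3 of 7 lymphatic markers lower. The summed alveolar macrophage markers were 719 to 814 CPM in acute RA and 2585 to 2593 CPM in acute CS, and the mesenchymal markers 175 to 238 CPM and 713 to 1080 CPM. Most of the alveolar macrophage sum in acute RA was Mrc1, at 663 CPM in F and 632 CPM in M. Mrc1 was the marker called lower, at 265 CPM in acute CS F and 411 CPM in acute CS M. The other markers of this list were all higher, Chil3 from a mean of 58.9 to 1334 CPM. Other lists split the smoke libraries: neutrophil markers summed to 1185 CPM in acute CS F and 25.6 CPM in acute CS M, and alveolar epithelial markers to 6792 and 269 CPM. In acute CS F and M, Phlda3 was at 65.6 and 66.4 CPM and the alveolar macrophage sum at 2585 and 2593 CPM. Of the alveolar macrophage and neutrophil markers, Marco, Siglecf and Retnlg were each at 0 in 1 acute RA library, and none was at 0 in acute CS. The share of counts in mitochondrial genes was also higher in acute CS F (0.749%) and M (0.458%) than in acute RA F (0.396%) and M (0.322%). The part of other cells or RNA quality in the rise of either gene was not tested.

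After chronic CS, none of the 10 genes passed the test, as none of all genes tested did (0%). By edgeR at an unadjusted p of 0.05, 0 of the 10 and 10.9% of all genes passed, and by DESeq2 at an adjusted p of 0.05, 0 of the 9 given one and 2.91% of all. In no gene of the 10 were the groups apart, against 9.41% of all genes. Phlda3 was at 35.7, 31.6 and 30.3 CPM in chronic RA F, M1 and M2 and at 24.6, 32.4, 37.9, 32.0 and 28.1 CPM in chronic CS F, M1, M2, M3 and M4. The smoke libraries lay on both sides of the room air libraries (log2 fold change -0.07, SE 0.15). Gdf15 was at 13.7, 9.33 and 7.78 CPM in chronic RA F, M1 and M2 and at 8.03, 8.85, 12.1, 8.90 and 6.44 CPM in chronic CS in the same order as above, again with overlap (log2 fold change -0.21, SE 0.26).

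Summed markers of some other cells were apart in the chronic groups too, with 0 markers called by edgeR. Alveolar epithelial markers summed to 265 to 503 CPM in chronic RA and 975 to 4837 CPM in chronic CS, mesenchymal markers to 132 to 165 CPM and 238 to 431 CPM, and neutrophil markers to 15.3 to 20.1 CPM and 27.4 to 159 CPM. Leukocyte markers overlapped, at 205 to 270 CPM and 210 to 475 CPM. The part of these cells in the chronic values was not tested.

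Cdkn1a split the chronic CS libraries. It was at 70.2, 84.2 and 86.5 CPM in chronic RA F, M1 and M2. In chronic CS it was at 136 CPM in F, 149 CPM in M1 and 193 CPM in M2, but at 62.3 CPM in M3 and 58.7 CPM in M4. Of the smoke libraries, 3 were thus above all room air libraries and the other 2 below all of them, and the fold change over all 5 did not pass the test (log2 0.57, SE 0.37, edgeR adjusted p = 0.591, exact two-sided permutation p = 0.393, where the smallest possible was 0.0357).

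Measures of the libraries moved with Cdkn1a. The 37 mitochondrial genes took 0.553%, 0.742% and 0.777% of counts in chronic CS F, M1 and M2, against 0.312% and 0.328% in M3 and M4 and 0.307% to 0.344% in chronic RA. These 3 libraries also had the lowest totals, 18821438 to 22885446 counts, against 45436986 and 47494020 in M3 and M4. In acute CS, F had the higher mitochondrial share (0.749%, and 0.458% in M) and the higher Cdkn1a level, at similar depth. The part of RNA quality and depth in the Cdkn1a level was not tested.

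**Figure D3:**
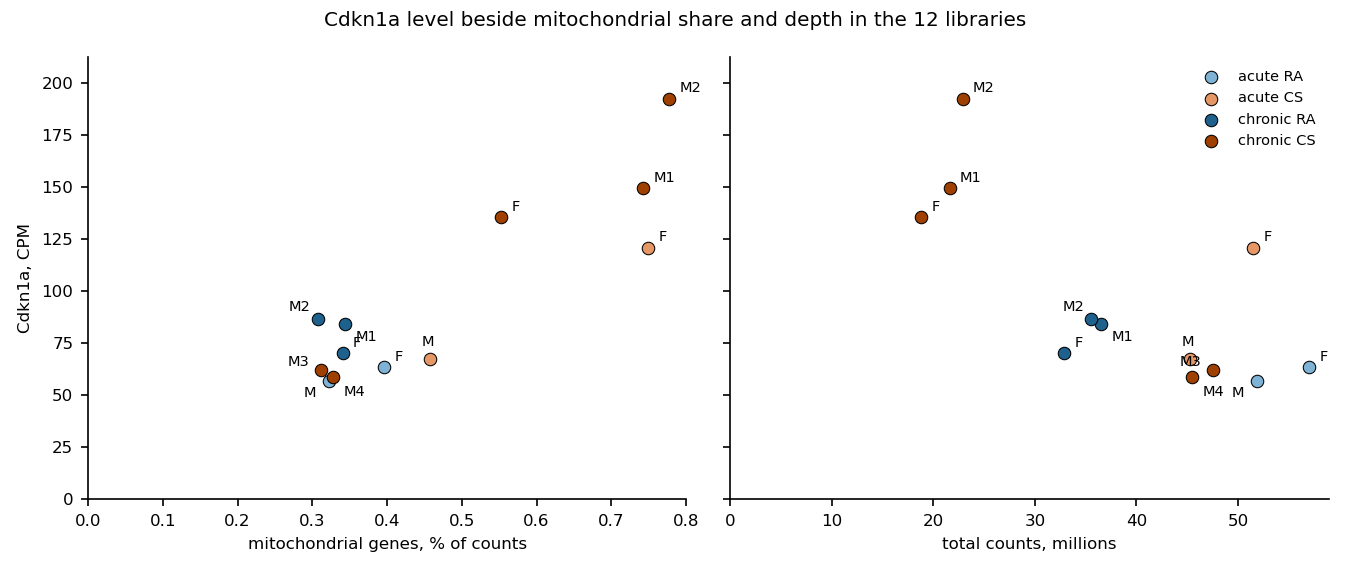
Cdkn1a in CPM (vertical axes) in the 12 libraries against the share of counts in mitochondrial genes in percent (left) and the total counts (right). Chronic CS F, M1 and M2 and acute CS F lie above 120 CPM and above 0.55% mitochondrial counts, and the other 8 libraries lie below 87 CPM and 0.46%.

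Over all 5 chronic CS libraries, the log2 fold changes of Mdm2, Ccng1, Sesn1, Bax, Phlda3 and Gdf15 lay between -0.21 and -0.02, and that of Trp53 was -0.14 (SE 0.13). Cdkn2b ranged from 0.836 to 8.64 CPM in chronic CS and from 1.99 to 3.92 CPM in chronic RA (log2 fold change 0.73, SE 0.65, edgeR adjusted p = 0.713). Cdkn2a had 18 counts in chronic CS M2, 2 in M3 and 0 in the other 3, and 9, 0 and 1 counts in chronic RA F, M1 and M2.

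The difference between the acute and the chronic effect was tested as an interaction, which 0 of the 10 genes and 0.452% of all genes passed by edgeR. Of the 10, 3 had an unadjusted p under 0.05, as had 11.9% of all genes, and DESeq2 called 2 of 9 and 5.23% of all. The acute effect of Phlda3 exceeded the chronic one by 1.31 on the log2 scale (SE 0.25, edgeR adjusted p = 0.0521), that of Gdf15 by 1.70 (SE 0.44, edgeR adjusted p = 0.132) and that of Cdkn2b by 2.50 (SE 1.09, edgeR adjusted p = 0.398).

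Between the room air groups, chronic RA against acute RA, none of the 10 genes passed the test, as none of all genes did (0%). At an unadjusted p of 0.05 by edgeR, 0 of the 10 and 7.01% of all genes passed, and by DESeq2 at an adjusted p of 0.05, 0 of 9 and 1.55%. Cdkn1a, Sesn1, Gdf15 and Phlda3 were higher in each chronic RA library than in each acute RA library, as were 17.7% of all genes, and Mdm2 and Bax were lower in each, as were 17%. Gdf15 had the largest of these differences (log2 0.58, SE 0.33, edgeR adjusted p = 0.745), the acute RA mean being 6.88 ± 0.0946 CPM (SD, n = 2) and that of chronic RA 10.3 ± 3.08 CPM (SD, n = 3). Cdkn1a differed by 0.41 (SE 0.46), Sesn1 by 0.28 (SE 0.26), Phlda3 by 0.21 (SE 0.18), Mdm2 by -0.11 (SE 0.20) and Bax by -0.18 (SE 0.18). Trp53 (0.06, SE 0.17), Ccng1 (-0.04, SE 0.33) and Cdkn2b (0.29, SE 0.80) overlapped. Cdkn2a, a gene whose mRNA is known to accumulate with age in many tissues, had 9 counts in chronic RA F, 0 in M1 and 1 in M2, against 0 in both acute RA libraries. The exact permutation test cannot go below p = 0.2 here. Summed cell type markers were apart between these groups as well. Lymphatic markers summed to 15254 to 17066 CPM in acute RA and 19934 to 22930 CPM in chronic RA. Of these 7 markers 5 were higher, while Prox1 (mean 2358 to 1967 CPM) and Nrp2 (1782 to 1581 CPM) were lower. In the same group order, alveolar epithelial markers summed to 796 to 1102 and 265 to 503 CPM. Lymphoid markers summed to 22.5 to 26.4 and 43.6 to 82.2 CPM, with 7 higher and 3 lower. Mesenchymal markers summed to 175 to 238 and 132 to 165 CPM, with 6 lower and 4 higher, among them Dcn (mean 33.4 to 62.4 CPM). Alveolar macrophage sums, at 719 to 814 and 616 to 718 CPM, nearly met. Most of them was Mrc1 (632 to 663 and 560 to 597 CPM), and Chil3 overlapped. The part of cell makeup in the room air differences was not tested.

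Further genes of the pathway were counted by list. After acute CS, the shares of all genes to read these counts against are the 2.75% called higher and 15.7% with an unadjusted p under 0.05. Of 40 further p53 targets, 2 rose after acute CS and none fell: Fas, a death receptor (34.4 to 85.5 CPM, log2 fold change 1.31, SE 0.20, edgeR adjusted p = 0.00801), and Perp, a membrane protein of desmosomes and apoptosis that epithelia also express (0.921 to 20.8 CPM, 4.49, SE 0.92, edgeR adjusted p = 0.0232). The next by p were Plk3 (1.31, edgeR adjusted p = 0.0615) and Sesn2 (1.03, edgeR adjusted p = 0.123). Over the 40, 22 were higher and 18 lower, with a median log2 fold change of 0.15, against 0.04 over all genes tested. With 1 acute library left out, this median was 0.049 without acute CS F, 0.061 without acute RA M, 0.089 without acute CS M and 0.25 without acute RA F. Of 16 p53 regulators tested 0 passed, with 3 at an unadjusted p under 0.05 (median -0.16, but 0.13 without acute RA F and 0.091 without acute CS M). Hipk2, a kinase that phosphorylates p53, had the smallest p of them (2.20, SE 0.68, edgeR adjusted p = 0.119). It was at 5.85 and 7.43 CPM in acute RA F and M and at 44.5 and 16.5 CPM in acute CS F and M, so that without acute CS F its acute CS level is lower by more than 1.5 times.

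No gene of the proliferation list passed the adjusted limit after acute CS. All 16 had a log2 fold change above 0 (median 1.10, against 0.04 over all genes) and 4 had an unadjusted p under 0.05. Without acute CS M, 10 of the 16 were above 0 and the median was 0.43, whereas it was 1.74 without acute CS F and 1.82 without acute RA M. Leukocyte and lymphoid markers rose in the same libraries, and their part in these values was not tested. Mki67, the marker of cycling cells, was at 4.87 CPM in acute RA and 20.1 CPM in acute CS (2.05, SE 0.65, edgeR adjusted p = 0.135). Its acute CS values were 13.1 CPM in F and 27.2 CPM in M, and without M the level is lower by more than 1.5 times. Of 10 other cell cycle inhibitors and pocket proteins, 0 passed and 9 were higher (median 0.34), led by Cdkn2d (0.95, SE 0.28, edgeR adjusted p = 0.103). With 1 acute library left out, 6 to 8 of them were higher and the median was 0.26 to 0.46. Of 11 senescence-associated genes tested, 0 passed, with 3 at an unadjusted p under 0.05. Hmgb2, a chromatin protein, was at 42.0 CPM in acute RA and 102 CPM in acute CS (1.29, SE 0.37, edgeR adjusted p = 0.0913). Lmnb1, a lamin whose loss marks senescent cells, was at 15.5 CPM in acute RA and 26.9 CPM in acute CS (0.80, SE 0.33, edgeR adjusted p = 0.270), and Glb1, the enzyme behind senescence-associated beta-galactosidase, at 15.5 and 32.7 CPM (1.07, SE 0.31, edgeR adjusted p = 0.0917).

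Of 28 tested genes of the senescence-associated secretory phenotype, 3 rose and 0 fell after acute CS, and 15 had an unadjusted p under 0.05. The 3 were the chemokine Cxcl12 (73.4 to 270 CPM, 1.88, SE 0.34, edgeR adjusted p = 0.0143), the cytokine Il1a (0.541 to 11.3 CPM, 4.38, SE 0.86, edgeR adjusted p = 0.0201) and Igfbp7 (219 to 602 CPM, 1.46, SE 0.33, edgeR adjusted p = 0.0363). Acute CS F was higher than acute CS M in each, at 381 and 158 CPM for Cxcl12, 16.5 and 6.18 CPM for Il1a and 717 and 487 CPM for Igfbp7, so that without acute CS F the acute CS level of Cxcl12 and Il1a is lower by more than 1.5 times. The median over the 28 was 1.39, the same with 4 genes that were at 0 in one group set to their bound. It was 0.64 without acute CS F, with 19 of the 28 above 0, and 1.83 without acute CS M. Leukocytes and mesenchymal cells also express such genes, and the marker sums of those cells in acute CS are given above. After chronic CS and between the room air groups, 0 genes of any of these 6 lists passed by edgeR. The medians after chronic CS were 0.11 for the p53 targets, 0.16 for the secretory genes and -0.44 for proliferation, of which 13 of 16 were lower, against 0.01 over all genes. With 1 chronic library left out, they lay between 0.014 and 0.10, 0.080 and 0.39, and -0.63 and -0.23, in this order. At an unadjusted p of 0.05, 11 of 40 p53 targets passed after chronic CS (5 higher, 6 lower), against 10.9% of all genes, led by Cd82 (-0.95, SE 0.20, edgeR adjusted p = 0.215), Plk3 (0.87) and Fas (0.50), and DESeq2 called 3 of the 40 after chronic CS (2.91% of all genes) and 2 between the room air groups (1.55% of all).

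**Figure D4:**
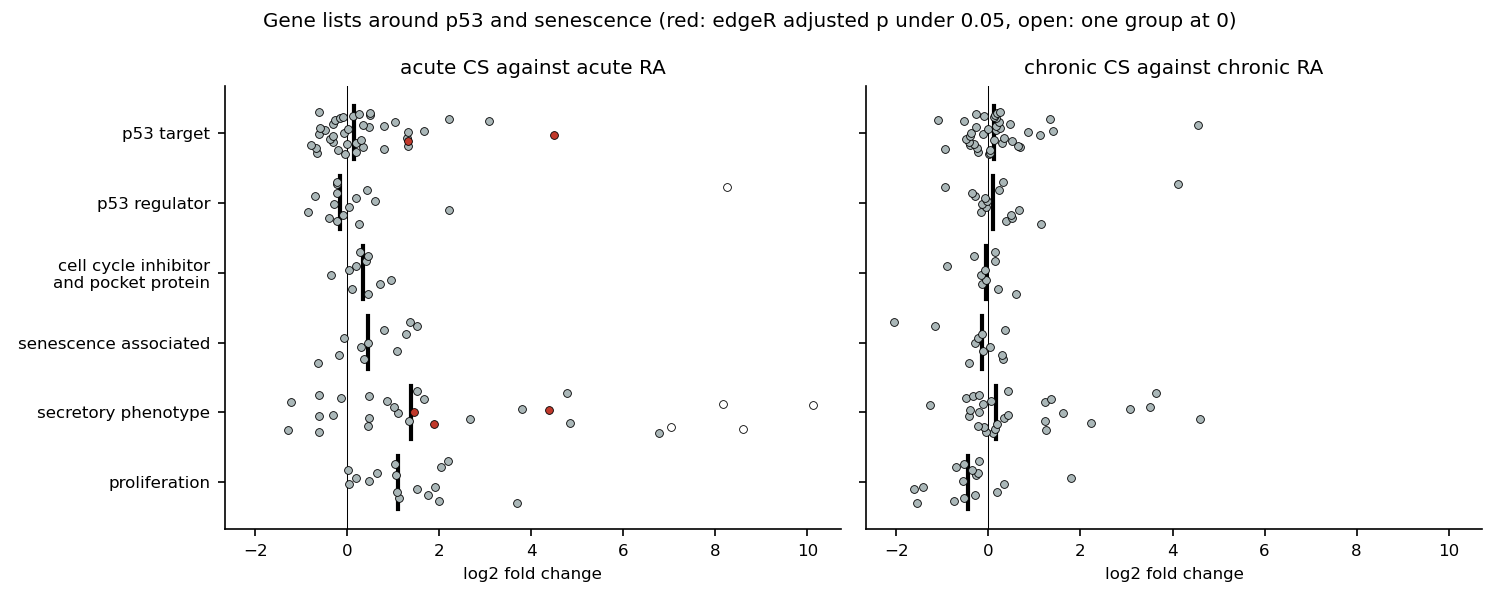
log2 fold change (horizontal axes) of each gene in 6 lists around p53 and senescence after acute CS (left) and chronic CS (right). Points are genes, red points passed edgeR's adjusted p of 0.05, open points were at 0 in one whole group, and thick bars are list medians. All 5 red points (Fas, Perp, Cxcl12, Il1a and Igfbp7) are in the acute comparison.

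The genes whose log2 CPM ran most like each member over the 12 libraries were ranked by Pearson's r, as a description. Phlda3 was closest to Plin2 (r = 0.985), Phgdh (0.970) and Jpt1 (0.964). Gdf15 was closest to Phlda3 itself (0.923), ahead of Nkd2 (0.915) and Pld3 (0.910). Cdkn1a was closest to Adamts9 (0.934), Gm19951 (0.926) and Ankrd52 (0.922), and none of these 3 is among the 10. Mdm2 was closest to Rbbp8 (0.953), Trp53 to Psat1 (0.908), Sesn1 to Tnfaip8l3 (0.936), Ccng1 to Vps35 (0.943), Bax to Atp6v0b (0.909), Cdkn2b to Fads1 (0.953) and Cdkn2a to Hrh2 (0.986). The libraries share groups, depth and cell makeup, and n = 12 in each.

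On GRCm38 the genes lie at chr11:69580359-69591873 (Trp53, ENSMUSG00000059552), chr10:117688875-117710758 (Mdm2, ENSMUSG00000020184), chr17:29090976-29100727 (Cdkn1a, ENSMUSG00000023067), chr4:89274471-89294653 (Cdkn2a, ENSMUSG00000044303), chr4:89306299-89311039 (Cdkn2b, ENSMUSG00000073802), chr11:40748552-40755311 (Ccng1, ENSMUSG00000020326), chr10:41809935-41908424 (Sesn1, ENSMUSG00000038332), chr7:45461697-45466898 (Bax, ENSMUSG00000003873), chr8:70629393-70632456 (Gdf15, ENSMUSG00000038508) and chr1:135766119-135769136 (Phlda3, ENSMUSG00000041801). Counts cover all exons of a gene, UTRs included. Cdkn2a and Cdkn2b are neighbors on chromosome 4, both on the minus strand. The pseudogene Trp53-ps had 0 to 3 counts a library. Bax shares 192 exon bases with Gm45808, which had 0 counts in every library, and Cdkn1a shares 273 with an antisense gene, and the strand setting of the counting is not given in the sources used here.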

How the data were processed

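RNA of sorted LECs was sequenced by the authors from SMART-Seq v4 and Nextera XT libraries. The deposited values are raw read counts per Ensembl gene and library, which the authors made with FastQC 0.11.9, Skewer 0.2.2, Minion and STAR in GeneCounts mode on GRCm38. The STAR version, annotation release and strand setting are not given in the sources used here. Groups were taken from the labels. Where nothing says which animals a library came from, p-values measure the spread between libraries.

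Counts were analyzed in R 4.3.3 with edgeR 4.0.16 (filter by expression, TMM, quasi-likelihood F-test, all 12 libraries by group), with Benjamini-Hochberg adjustment over 21440 genes and a limit of 0.05. The alternatives used DESeq2 1.42.0, other scaling, no filter, fewer libraries, sex or replicate blocks. Log2 CPM had a prior count of 2. A floor of 3 counts was 0.0507 to 0.158 CPM, a limit for counting error alone. The fits were first tested on simulated data with known changes. In the acute comparison they recovered 6.52% of genes with a true log2 change of 1 and 45.8% with 2. In the chronic comparison these shares were 25.3% and 49%, so a gene that did not pass may still have changed. No libraries were duplicates by their counts. Positions and exon lengths came from GENCODE M21 (147 identifiers were not in it), and windows from RefSeq.

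All 10 members were named in each comparison. Of each list, genes past the limit were named or, if under 4, the smallest p, with some not repeated here. The members and lists were chosen with earlier results of these data known. One marker list is not reported here.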

Additional observations from a re-analysis of the deposited data

Results flagged for a closer look

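Cdkn2a in chronic CS M2, at 0.748 CPM (18 counts), was far from the other 4 chronic CS libraries, which had at most 2 counts. Its gap to the nearest of them was more than 0.71 of the range of the group, the 95% limit of Dixon's test for 5 samples. The 10 genes were each checked in this group, and chance marks about 1 in 20. Without this library the log2 fold change of Cdkn2a after chronic CS was -2.71 (edgeR adjusted p = 0.590) in place of 0.58.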

How the results depend on the processing

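After chronic CS and between the room air groups, 0 of the 10 genes were called under every alternative. After acute CS, where 2 were called, 3 were called with DESeq2, 1 was called with DESeq2 size factors, library size, no filter, sex as a covariate or robust estimation, 0 with only the groups compared or the replicate block, and 0 to 2 when a library was left out (0 without acute RA F, acute RA M or acute CS F). For the acute minus the chronic effect, 2 were called with DESeq2 and with the limits of p under 0.005 and a log2 fold change of 1, 1 with robust estimation or chronic CS M3 and M4 only, and 0 to 1 when a library was left out. Of the 40 p53 targets, after acute CS 5 were called with DESeq2, 0 with only the groups compared or the replicate block, and 0 to 4 when a library was left out. After chronic CS 3 of the 40 were called with DESeq2. Of all genes, DESeq2 called 10.9% after acute CS, 5.23% for the acute minus the chronic effect, 2.91% after chronic CS and 1.55% between the room air groups. The share of all genes under the limits on p and fold is not given here, so counts under them cannot be set against it. Between the room air groups 2 of the 40 were called with DESeq2 or only the groups compared and 1 without the filter or with the limits on p and fold.

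Fold changes that had not passed the test changed sign, including the 3 largest after chronic CS, those of Cdkn1a (0.57), Cdkn2a (0.58) and Cdkn2b (0.73). After chronic CS, with M3 and M4 only, Cdkn1a was at -0.41, Cdkn2a -2.11, Mdm2 0.15, Ccng1 0.29 and Sesn1 0.21. Bax was at 0.018 with DESeq2, 0.019 with its size factors, 0.074 with library size (Phlda3 0.018), 0.12 with the replicate block (Cdkn2b -0.19) and 0.15 with F, M1 and M2 only. Trp53 was at -0.041 between room air groups with library size. When a library was left out, acute values were -0.28 to 0.20 for Trp53, -0.15 to 0.47 for Ccng1 and -0.60 to 0.026 for Sesn1. Chronic values were -2.71 to 3.15 for Cdkn2a, -0.20 to 0.031 for Mdm2, -0.24 to 0.078 for Ccng1, -0.22 to 0.015 for Sesn1, -0.098 to 0.055 for Bax, -0.37 to 0.058 for Gdf15 and -0.15 to 0.0093 for Phlda3. Room air values were -0.099 to 0.81 for Cdkn2b, -0.015 to 0.098 for Trp53 and -0.12 to 0.031 for Ccng1. The cause was not tested.

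Over all genes, 745 were called after acute CS, against 1961 with DESeq2, 139 with only the groups compared, 73 with the replicate block and 3 without acute RA M. DESeq2 called 524 after chronic CS and 253 between room air groups, where edgeR called 0. Same-numbered libraries correlated by 0.069 (acute) and -0.042 to 0.034 (chronic) in their deviations, so the numbers were not taken as pairs. With the replicate block, edgeR adjusted p after acute CS was 0.0995 for Phlda3 and 0.209 for Gdf15. With 2 acute libraries a group, a left-out library leaves 1, assumed to vary like the other groups.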
